A study of Mus musculus with 4 samples.

Results

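Genes of the Ube2 series, which encode the ubiquitin-conjugating (E2) enzymes and their relatives, were described in RNA-seq libraries of mouse zygotes. Ubiquitin is attached to proteins by a relay: an E1 enzyme activates it, an E2 enzyme carries it on a cysteine of its conserved catalytic fold, and an E3 ligase helps pass it to the target. The E2 decides much of what is built, a single ubiquitin, a lysine 48 chain that sends a protein to the proteasome, or a lysine 63 chain used in DNA repair and signalling. In the egg-to-embryo transition this relay takes part in removing stored maternal proteins. The members were all features whose symbol starts with Ube2 and a further lower-case letter, without symbols holding "-ps" and without Ube2c and Ube2s, the E2 pair of the anaphase-promoting complex. This gave 38 members of 55291 features. All 38 were found in the GENCODE M21 annotation of mm10 with the same coordinates and exon length. Of them 35 were protein coding, 2 were processed pseudogenes (Ube2nl and Ube2d4) and 1 was an antisense RNA (Ube2uos, antisense to Ube2u). Ube2cbp is named for binding an E2 and is a ligase, not an E2 itself.

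The series asks how maternally stored histone H3.3 acts on the parental genomes during the minor wave of zygotic genome activation. It has 4 samples, each of mouse zygotes and each with 2 count columns, called libraries 1 and 2 here: S31A injected, S31A control, MO injected and MO control. S31A names H3.3 with serine 31 replaced by alanine. MO, usually a morpholino, is not spelled out in the labels, and it is named there together with H3.3. What the control zygotes received, the mouse strain, the amount injected and the number of embryos per library are not given in the sources used here. Each group was 1 sample, so no difference between groups has a replicate check, and the spread between the libraries of a sample may be technical.

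The sequence around the active-site cysteine is shown because most of the coding members share it. The choice by symbol did not search for it, but the symbols name genes of this enzyme family. Its excess among the members was thus built into the choice and is no separate result. Each line is 45 bases of the coding strand, 5′ to 3′, from the GENCODE M21 transcripts. The first capitals are the codons for His-Pro-Asn, and the later capitals are the cysteine codon.
Ube2d3: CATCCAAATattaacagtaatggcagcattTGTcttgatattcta
Ube2g1: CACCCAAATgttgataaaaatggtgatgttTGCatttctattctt
Ube2r2: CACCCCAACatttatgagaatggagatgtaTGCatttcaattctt
Ube2a: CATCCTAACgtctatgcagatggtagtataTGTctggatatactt
Ube2b: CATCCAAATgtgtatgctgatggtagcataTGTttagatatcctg
Ube2n: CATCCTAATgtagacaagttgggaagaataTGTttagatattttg
Ube2t: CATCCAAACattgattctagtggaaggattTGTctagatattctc
An in-frame His-Pro-Asn run (CACCCNAAC, CACCCNAAT, CATCCNAAC or CATCCNAAT, coding strand only) was found in 21 of the 35 members with a complete coding sequence, against 3.88% of 21592 protein coding genes. With a cysteine codon as the 11th codon of the window it was found in 18 of the 35 members, against 0.324% of the coding genes. The coding genes counted here include the members. Ube2k, Ube2h and Ube2u had the run but no cysteine codon at that place. Ube2w, all members of the Ube2e, Ube2j, Ube2q and Ube2v families, Ube2o, Ube2z and Ube2cbp had no such run. Ube2v1 and Ube2v2 are E2 variants known to lack the active cysteine, but the absence of these letters says nothing of that in the others.

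Libraries held 5661621 to 13233371 counts, and a count of 0 in a library allows up to 0.230 to 0.493 CPM, the count scaled to library depth, counting error only. All 12 egg and zygote markers were detected, at a summed 5474 to 11786 CPM per library. Of 12 cumulus and granulosa cell markers 8 were at 0 in all libraries (Has2, Tnfaip6, Ptx3, Foxl2, Amh, Amhr2, Fshr and Fst) and the list summed to 46.7 to 166 CPM. Most of this sum was Cyp19a1, at 35.0 to 165 CPM and present in all 8 libraries; of the others detected, Star had 252 counts in S31A control library 1 alone, Inhba was seen in the MO control libraries and Ptgs2 in library 1 of both injected samples. Of 6 sperm markers 4 were at 0 (Prm1, Tnp1, Tnp2 and Akap4) and the list summed to 1.30 to 6.74 CPM. H3f3b, a gene for H3.3, had 126 counts in MO injected and 29658 counts in MO control zygotes, and 54275 counts in S31A injected and 36240 counts in S31A control zygotes. H3f3a, the other such gene, had 585 counts in MO injected and 7811 counts in MO control zygotes, and 11737 counts in S31A injected and 13429 counts in S31A control zygotes. In pooled embryos a lower share of counts from fewer embryos carrying an RNA cannot be told apart from less of that RNA in each embryo.

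Zygotes held RNA of most E2 classes. Of the 38 members, 35 had a count in at least 1 library, 20 had counts in all 8 libraries and 15 were at 0 in some libraries. Ube2l6, Ube2v1 and Ube2d2b were at 0 in all 8 libraries. A level of 10 CPM or more in at least 1 sample was reached by 22 members, and 19 reached it in all 4 samples. Per length, in RPKM (counts scaled for depth and divided by length), Ube2g1 led with a mean of 133 RPKM over the 8 libraries, and Ube2d3 followed with 92.9 RPKM. Ube2a (66.1 RPKM), Ube2d2a (51.2 RPKM), Ube2k (46.3 RPKM), Ube2w (40.9 RPKM) and Ube2h (39.3 RPKM) came next. By counts alone Ube2d3 was far ahead, at 51.7% (51.4% to 52.0%) of all counts on members in S31A injected zygotes and 42.3% (42.0% to 42.6%) in S31A control zygotes, and at 43.9% (43.7% to 44.2%) in MO injected and 40.1% (39.8% to 40.4%) in MO control zygotes (95% Clopper-Pearson intervals). These intervals cover counting error only. By library the Ube2d3 share was 52.4% and 50.9% in S31A injected and 41.3% and 43.3% in S31A control zygotes. In MO injected zygotes it was 45.9% and 41.7%, and in MO control zygotes 40.0% and 40.3%. The deposited length of Ube2d3, 24499 bases, is the sum of all its annotated exons, so its level per length depends on which transcripts are present. Among the 20 members detected in all libraries, 18 of 19 neighbour pairs in this order had overlapping ranges over the libraries. The exception was Ube2j2 (0.997 to 6.92 RPKM) above Ube2e1 (0.0490 to 0.256 RPKM), and members at 0 in some libraries lay between them, such as Ube2r2 with a mean of 1.85 RPKM and Ube2l3 with 1.01 RPKM.

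**Figure D1:**
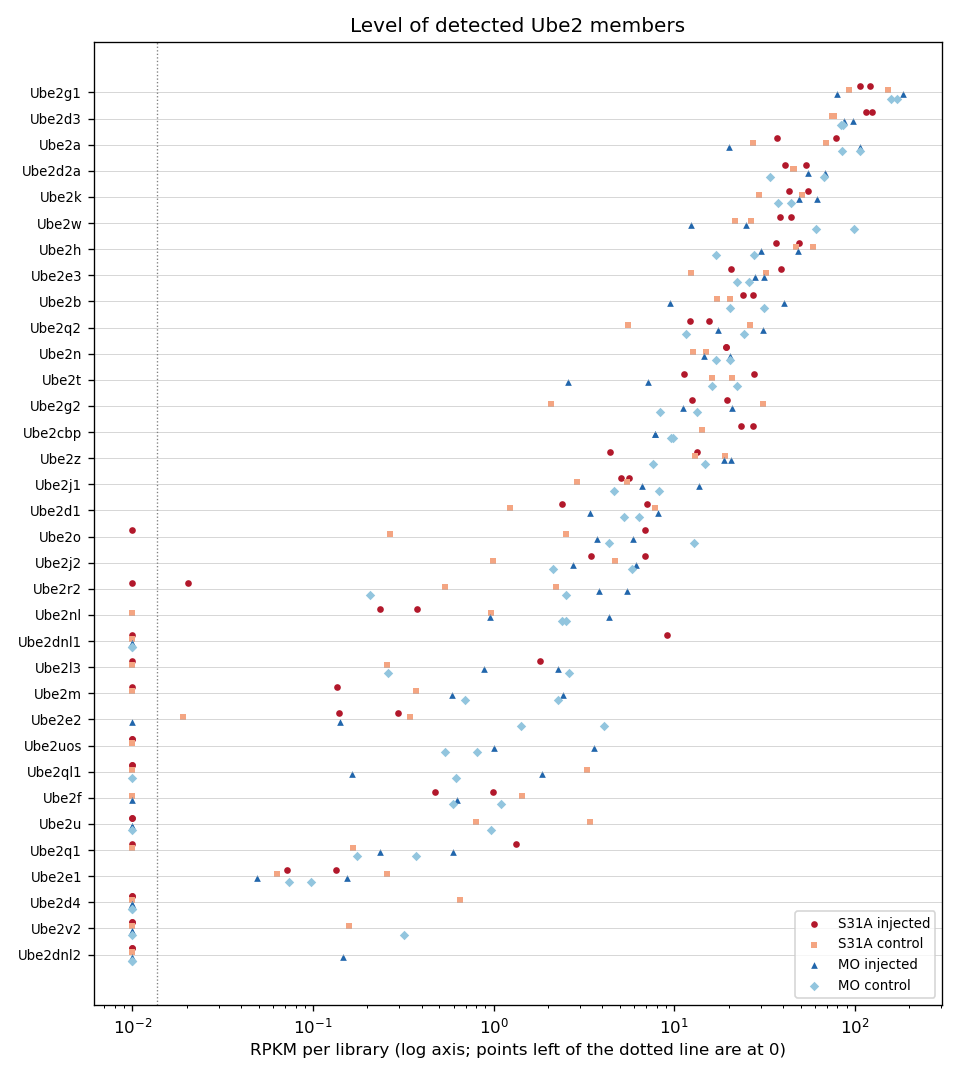
Level of detected members in RPKM (log axis), 1 point per library with S31A injected, S31A control, MO injected and MO control marked by colour and shape, members ordered by mean level. Levels run from 133 RPKM for Ube2g1 down to members seen in single libraries, and the libraries of most neighbouring members overlap.

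Most measured members differed by less than 2-fold with S31A injection. Counts of the libraries were summed per sample, and a log2 ratio is that of CPM in the injected over the control sample with a prior count of 2. A gene that reached 10 CPM in either of the samples compared is called measured, and intervals are exact 95% intervals of counting error only. Of 20 measured members, 1 was at least 2-fold higher in S31A injected than in S31A control zygotes and 0 were lower, where 14.1% of 8191 measured genes were higher and 16.1% lower. The 1 was Ube2o, and its libraries overlapped between the groups. The count depended on single libraries, and the shares over all genes were then larger too. Without S31A injected library 1 there were 1 higher (Ube2j2) and 1 lower (Ube2z) of 19 members, beside 15.3% of genes higher and 20.8% lower. Without S31A injected library 2 there were 2 higher (Ube2o and Ube2l3) and 0 lower of 21, beside 17.7% and 21.1% of genes. Leaving out S31A control library 1 gave 4 higher (Ube2a, Ube2d1, Ube2j2 and Ube2q2) and 0 lower of 20, beside 18.5% and 18.6% of genes. Leaving out S31A control library 2 gave 3 higher (Ube2o, Ube2e3 and Ube2g2) and 0 lower of 21, beside 20.4% and 18.7% of genes. The median log2 ratio of the members was 0.26, against 0.02 over all measured genes, with 15 members positive and 5 negative. The members' median was 0.39 and -0.04 without S31A injected library 1 or 2, and 0.55 and 0.13 without S31A control library 1 or 2. Injected and control libraries did not overlap, whatever the size, for 5 members (25%), against 39.5% of measured genes; past 2-fold as well, this held for 0 members, against 9.19% of genes on the higher and 11.4% on the lower side. Ube2w, Ube2cbp, Ube2d3, Ube2n and Ube2b were these 5, all on the higher side.

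With MO injection 3 members stood 2-fold or more below their level in MO control zygotes and 1 stood as far above it, and in each of these 4 the injected and control libraries did not overlap. Of 22 measured members these were Ube2e2, Ube2w and Ube2t on the lower side and Ube2r2 on the higher side. Among 8110 measured genes 12.5% were lower and 11.3% higher by this fold, and 10.4% and 7.29% were so without overlap. The median log2 ratio of the members was 0.19, against 0.03 over all measured genes, with 13 positive and 9 negative. That median was 0.10 and 0.06 without MO injected library 1 or 2, and 0.07 and 0.14 without MO control library 1 or 2. Libraries did not overlap at any size for 10 members (45.5%), against 40.5% of measured genes. The counts of called members also depended on single libraries: without MO injected library 2 there were 7 of 22 members lower and 2 higher, with Ube2a, Ube2b, Ube2g1 and Ube2o added to the lower and Ube2h to the higher side, beside 22.7% of genes lower and 15.3% higher. Without MO control library 1 there were 4 lower and 3 higher of 23 members, beside 18.3% and 16.8% of genes, and Ube2r2 was no longer among them. Without MO control library 2 there were 2 lower and 4 higher of 21 members, beside 12% and 12.3% of genes; Ube2e2 was then under 10 CPM in both samples. Without MO injected library 1 the counts were 3 and 1 of 23, beside 14% and 7.99% of genes. Ube2w and Ube2t stayed at least 2-fold lower without any 1 library.

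The control samples also differed from each other. The S31A control libraries had 11372 and 11768 detected features and 9.65% and 10.4% of counts on mitochondrial genes, against 15156 and 14895 features and 5.55% and 5.23% in the MO control libraries. The injected libraries had 11791 and 11447 features and 7.13% and 9.59% with S31A, and 13159 and 13359 features and 3.47% and 4.99% with MO. The part of these differences in the ratios of members was not tested. Of 21 measured members, 1 was at least 2-fold higher in S31A control than in MO control zygotes (Ube2h) and 3 were lower (Ube2w, Ube2o and Ube2e2), where 13.6% of 8266 genes were higher and 16.2% lower. All 4 were without overlap of libraries, as were 9.67% of genes on the higher and 14.5% on the lower side. At any size 10 members (47.6%) did not overlap, against 46.4% of genes. Both Ube2w and Ube2e2, lower with MO injection, were thus also lower in the S31A control than in the MO control sample. The MO comparison shares its MO control sample with this one. In this comparison, leaving out S31A control library 1 gave 2 higher and 7 lower of 21 members, beside 16.3% and 20.5% of genes, and leaving out library 2 gave 1 and 5 of 22, beside 17% and 21.9%. Leaving out MO control library 1 gave 1 and 5 of 23, beside 16.4% and 19% of genes, with Ube2h no longer among them, and leaving out library 2 gave 2 and 3 of 20, beside 15.9% and 16.7%.

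**Figure D2:**
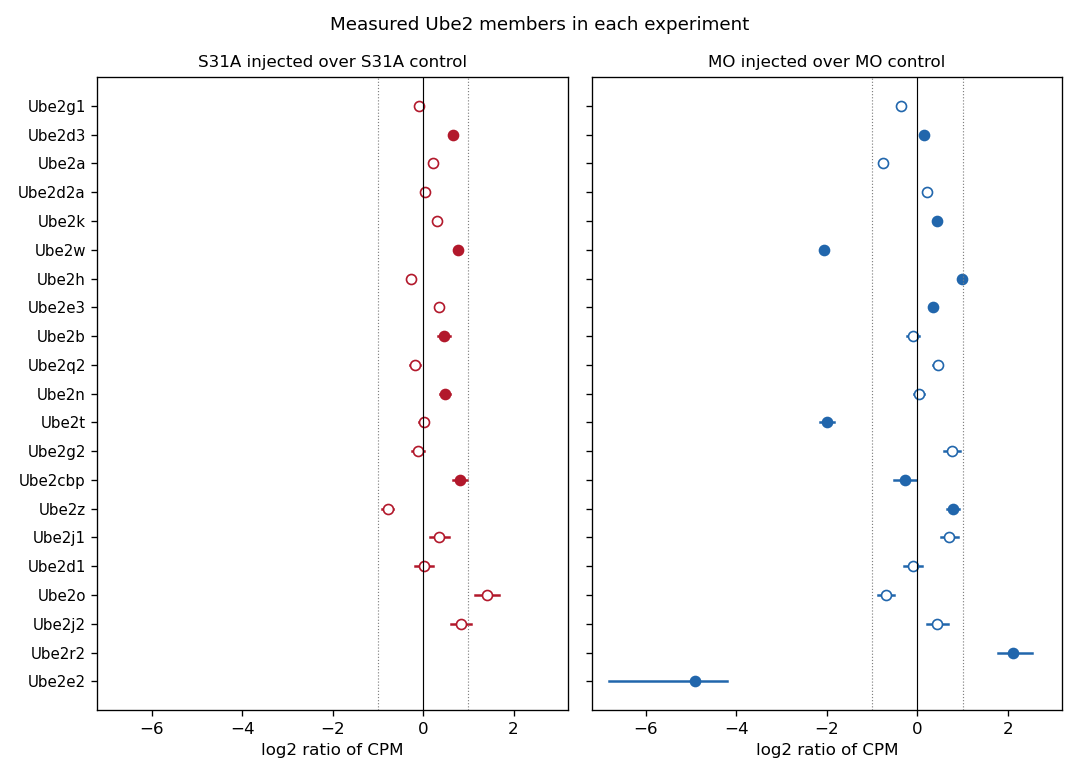
Log2 ratio of CPM for measured members, S31A injected over S31A control on the left and MO injected over MO control on the right, with exact 95% intervals of counting error as lines and dotted lines at 2-fold. Filled points mark members whose injected and control libraries did not overlap; Ube2e2, Ube2w and Ube2t lie beyond the dotted line on the lower side and Ube2r2 on the higher side with MO, and only Ube2o lies beyond it with S31A.

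Over the libraries, edgeR's quasi-likelihood test with Benjamini-Hochberg adjustment passed 0 members in either experiment. It compares libraries of single samples and not the conditions. The smallest adjusted p of a member was 0.802 with S31A and 0.825 with MO, and at an unadjusted p under 0.05 there were 1 member with S31A (Ube2d3), against 5.98% of genes, and 3 with MO (Ube2w, Ube2t and Ube2e2), against 5.29% of genes. Over all measured genes this test passed 0.0244% with S31A and 0% with MO. DESeq2 over the same libraries passed 1 member in each, Ube2d3 with S31A (adjusted p 4.86e-05) and Ube2w with MO (adjusted p 0.00764), where it passed 7.34% and 0.666% of measured genes. Without MO injected library 2, edgeR passed 4 members in the MO experiment: Ube2w (adjusted p 0.00386), Ube2t (0.00856), Ube2e2 (0.01) and Ube2a (0.0122), among 9.45% of genes. When edgeR compared the S31A ratio with the MO ratio directly (an interaction term, 8 libraries), 0 of 22 members and 3 of 8981 genes had an adjusted p under 0.05. The smallest unadjusted p was that of Ube2w (0.00128, adjusted p 0.42), and Ube2t and Ube2r2 were also under 0.05 unadjusted. The share of all genes under this unadjusted limit was not counted, so these members cannot be set against it.

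The broad partners of RING ligases are the Ube2d enzymes, which start chains with many ligases, the related Ube2e enzymes, and Ube2w, which attaches ubiquitin to the amino terminus of proteins. Of these 11 members 6 reached 10 CPM. Ube2w (chr1:16540790-16619489, minus strand) had 189 and 218 CPM in the S31A injected libraries and 106 and 131 CPM in the S31A control libraries, 60.7 and 123 CPM in the MO injected libraries and 301 and 484 CPM in the MO control libraries. The S31A injected libraries lay above the S31A control libraries, and the MO injected libraries lay well below the MO control libraries, which were the highest of all. The log2 ratio was 0.76 (95% interval 0.69 to 0.83) with S31A, that is 1.70-fold higher, and -2.06 (95% interval -2.14 to -1.99) with MO, that is 4.17-fold lower. Between controls it was -1.59, lower in S31A control than in MO control zygotes. Of its exon bases 5.13% are shared with the opposite-strand gene Gm38342, and the strand setting of the counting was not given.

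Ube2d3 (chr3:135438149-135468198, plus strand) had 2811 and 3027 CPM in the S31A injected libraries and 1829 and 1879.9 CPM in the S31A control libraries, 2130.3 and 2387 CPM in the MO injected libraries and 2105 and 2039 CPM in the MO control libraries. Its S31A injected libraries were the highest of the 8 and its S31A control libraries the lowest, and the libraries of a sample lay close together. The log2 ratio was 0.65 (95% interval 0.64 to 0.67) with S31A and 0.16 (95% interval 0.14 to 0.18) with MO, and neither reached 2-fold. Ube2d2a, on chromosome 18, had 474 and 617 CPM in the S31A injected libraries and 529.5 and 522 CPM in the S31A control libraries, 633 and 793 CPM in the MO injected libraries and 781 and 389 CPM in the MO control libraries. Its injected libraries overlapped the control libraries in both experiments, with log2 ratios of 0.04 and 0.21. Ube2d1 stood at 1.23 to 8.17 RPKM over the libraries and Ube2e3 at 12.4 to 39.1 RPKM, and neither differed by 2-fold in an experiment.

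Ube2e2 (chr14:18573575-18894267, minus strand) had 1.36 and 0.642 CPM in the S31A injected libraries and 1.59 and 0.0879 CPM in the S31A control libraries, 0 and 0.655 CPM in the MO injected libraries and 6.52 and 18.9 CPM in the MO control libraries. It was seen above 2 CPM only in the MO control libraries, and the other 6 libraries were all lower. In counts these were 6 in MO injected and 175 in MO control zygotes, and 22 in S31A injected and 18 in S31A control zygotes. The log2 ratio with MO was -4.92 (95% interval -6.82 to -4.20). In the S31A experiment Ube2e2 was not measured at 10 CPM, and between controls its log2 ratio was -3.61, lower in S31A control zygotes. The other members of this class with any count, Ube2e1, Ube2d4, Ube2dnl1 and Ube2dnl2, held 1 to 79 counts in all 8 libraries together; the 79 counts of Ube2dnl1, a relative of the Ube2d genes on chromosome X, were all in S31A injected library 1.

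The lysine 48 chain builders were Ube2g1 and Ube2r2, which extend chains with cullin-RING ligases, Ube2k, and Ube2h, the partner of the CTLH ligase that holds Maea. All 4 were measured, and their summed level was 182 to 281 RPKM per library. Ube2g1 (chr11:72607283-72686481, plus strand) had 488 and 551 CPM in the S31A injected libraries and 695 and 422 CPM in the S31A control libraries, 362 and 849 CPM in the MO injected libraries and 723 and 779 CPM in the MO control libraries. MO injected library 1 was its lowest and MO injected library 2 its highest value, so that the MO groups overlapped, and the log2 ratios were -0.10 with S31A and -0.35 with MO. Ube2k (chr5:65537233-65598988, plus strand) had 434 and 342 CPM in the S31A injected libraries and 233 and 402 CPM in the S31A control libraries, 386 and 487 CPM in the MO injected libraries and 348 and 294 CPM in the MO control libraries. The MO injected libraries lay above the MO control libraries by less than 2-fold, a log2 ratio of 0.44 (95% interval 0.39 to 0.49), and with S31A the libraries overlapped at a log2 ratio of 0.30.

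Ube2h had 234 and 175 CPM in the S31A injected libraries and 224 and 279 CPM in the S31A control libraries, 231 and 145 CPM in the MO injected libraries and 81.6 and 133 CPM in the MO control libraries. The MO control libraries were the lowest of the 8, and the MO injected libraries lay above them without overlap. The log2 ratio was 0.99 (95% interval 0.91 to 1.08) with MO, just short of 2-fold, -0.27 with S31A, and 1.36 (95% interval 1.28 to 1.45) for S31A control over MO control. That last ratio was 0.97 without MO control library 1, just short of 2-fold. Ube2r2 (chr4:41135743-41193380, plus strand) had 0.0853 and 0 CPM in the S31A injected libraries and 2.24 and 9.32 CPM in the S31A control libraries, 23.1 and 15.9 CPM in the MO injected libraries and 0.869 and 10.5 CPM in the MO control libraries. Its MO injected libraries were the highest and its S31A injected libraries were at or near 0, with 1 count in all. The log2 ratio was 2.12 (95% interval 1.79 to 2.53) with MO, that is 4.36-fold higher, but 0.97 without MO control library 1 and 4.42 without MO control library 2. With S31A it was not measured at 10 CPM; 1 count against 130 counts in S31A control zygotes gave a log2 ratio of -5.36 (95% interval -12.26 to -4.45).

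**Figure D3:**
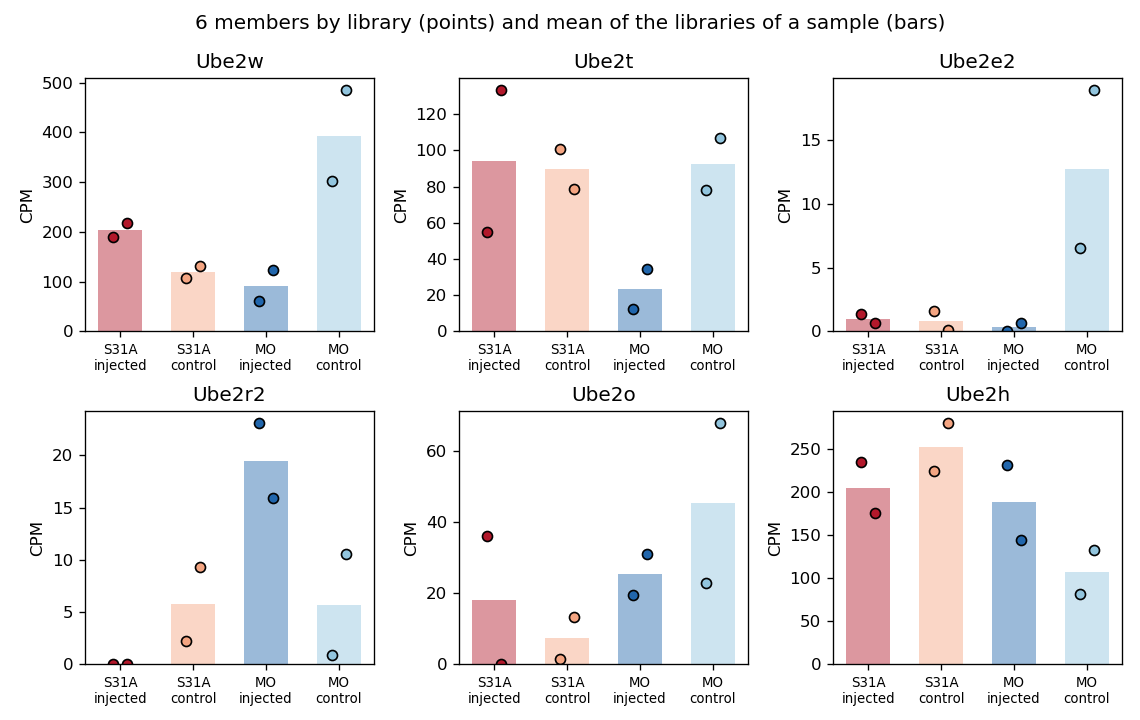
CPM of Ube2w, Ube2t, Ube2e2, Ube2r2, Ube2o and Ube2h in each library (points) with the mean of the libraries of a sample (bars), S31A injected, S31A control, MO injected and MO control from left to right. The MO control libraries are the highest for Ube2w and Ube2e2, the MO injected libraries the lowest for Ube2t and the highest for Ube2r2, and the libraries of Ube2o are at least 2-fold apart in 3 of the 4 samples.

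The DNA damage tolerance and lysine 63 class holds Ube2a and Ube2b, the mammalian Rad6 enzymes that work with Rad18 on PCNA and with Rnf20 and Rnf40 on histone H2B, Ube2n, which builds lysine 63 chains with a Ube2v partner, and Ube2t, the E2 of the Fanconi anaemia pathway. Ube2t (chr1:134962565-134974162, plus strand) had 54.9 and 133 CPM in the S31A injected libraries and 101 and 78.6 CPM in the S31A control libraries, 12.5 and 34.6 CPM in the MO injected libraries and 78.0 and 107 CPM in the MO control libraries. The MO injected libraries were the lowest of the 8, and the other 6 libraries overlapped. The log2 ratio was -1.99 (95% interval -2.15 to -1.85) with MO, that is 3.98-fold lower, 0.01 with S31A and 0.05 between controls. Its libraries within the MO injected sample were themselves more than 2-fold apart. Ube2a (chrX:36873900-36884222, plus strand) had 83.6 and 177 CPM in the S31A injected libraries and 157 and 61.6 CPM in the S31A control libraries, 45.6 and 243 CPM in the MO injected libraries and 242 and 192 CPM in the MO control libraries. MO injected library 1 was the lowest and MO injected library 2 the highest of the 8, so the log2 ratio of -0.76 with MO depended on the library: it was -2.32 without library 2 and 0.10 without library 1. With S31A the log2 ratio was 0.22, and 1.05 without S31A control library 1. Ube2b had 57.7 and 50.7 CPM in the S31A injected libraries and 43.3 and 36.5 CPM in the S31A control libraries, and 19.99 and 86.4 CPM in the MO injected libraries and 43.3 and 66.6 CPM in the MO control libraries. The MO injected libraries of Ube2b were its lowest and its highest value. Ube2n was among the steadiest members, at 12.6 to 20.4 RPKM, with log2 ratios of 0.49 with S31A and 0.03 with MO. Ube2v1 had 0 counts and Ube2v2 had 33 counts in all libraries together. Of the exon bases of Ube2v1 69.1% lie in other annotated genes, Gm11476 and Gm20431.

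The endoplasmic reticulum class, Ube2g2, Ube2j1 and Ube2j2, serves the removal of misfolded proteins from that compartment, and all 3 were measured. Ube2j2 had 15.2 and 30.5 CPM in the S31A injected libraries and 20.7 and 4.40 CPM in the S31A control libraries, 26.9 and 12.1 CPM in the MO injected libraries and 9.35 and 25.6 CPM in the MO control libraries. Its libraries overlapped between the groups of each experiment, and the log2 ratio of 0.83 (95% interval 0.62 to 1.06) with S31A was 2.33 without S31A control library 1. Ube2g2 had 30.6 and 47.4 CPM in the S31A injected libraries and 5.05 and 75.2 CPM in the S31A control libraries. The S31A control libraries held both the lowest and the highest of all 8 values, and the log2 ratio with S31A, -0.11, was 2.94 without S31A control library 2. With MO it was 0.76 with overlapping libraries. Of the exon bases of Ube2g2 10.3% lie in other genes of the same strand, Gm49325 and Mir1930. Ube2j1 ranged over 2.89 to 13.6 RPKM, with log2 ratios of 0.36 and 0.71.

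For the ubiquitin-like modifiers, Ube2m and Ube2f carry NEDD8, Ube2l6 carries ISG15, and Ube2z is charged by Uba6. Ube2z was measured, and Ube2m and Ube2f were not. Ube2z had 53.2 and 17.6 CPM in the S31A injected libraries and 52.1 and 76.4 CPM in the S31A control libraries, 82.3 and 75.4 CPM in the MO injected libraries and 59.1 and 30.6 CPM in the MO control libraries. It was lower in S31A injected than in S31A control zygotes by a log2 ratio of -0.78 (95% interval -0.91 to -0.66) with overlapping libraries, and higher in MO injected than in MO control zygotes by 0.79 (95% interval 0.66 to 0.91) without overlap. Without S31A injected library 1 the first was -1.92, and without MO control library 1 the second was 1.41.

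Among the large and atypical members, Ube2o, which joins E2 and ligase functions in a single long protein, and Ube2q2 were measured. Ube2o (chr11:116537740-116581447, minus strand) had 36.2 and 0 CPM in the S31A injected libraries and 1.402 and 13.4 CPM in the S31A control libraries, 19.6 and 31.2 CPM in the MO injected libraries and 22.9 and 67.9 CPM in the MO control libraries. S31A injected library 1 carried all 425 counts of its sample and library 2 none. The log2 ratio with S31A, 1.41 (95% interval 1.16 to 1.69), thus rested on 1 library: leaving out S31A control library 1 gave 0.62, and leaving out S31A control library 2 gave 3.79. Without S31A injected library 1 it was -6.07, then under 10 CPM in both samples. With MO the log2 ratio was -0.69 with overlapping libraries, and S31A control zygotes were lower than MO control zygotes by -2.36 (95% interval -2.63 to -2.13). Ube2q2 had 52.9 and 66.7 CPM in the S31A injected libraries and 112 and 23.7 CPM in the S31A control libraries, and 134 and 75.1 CPM in the MO injected libraries and 105 and 49.8 CPM in the MO control libraries. The S31A control libraries of Ube2q2 lay on either side of the S31A injected libraries. Ube2q1, Ube2ql1, Ube2u and its antisense Ube2uos stayed under 10 CPM in every sample, as did Ube2l3, the partner of HECT and RBR ligases, at 0 to 2.62 RPKM. Ube2l3 shares 28.6% of its exon bases with the opposite-strand gene Ydjc. Ube2cbp had 41.9 and 48.7 CPM in the S31A injected libraries and 25.5 and 25.6 CPM in the S31A control libraries, 13.9 and 14.0 CPM in the MO injected libraries and 17.5 and 17.3 CPM in the MO control libraries. Its S31A injected libraries were the highest of the 8 and its MO injected libraries the lowest, with log2 ratios of 0.82 (95% interval 0.67 to 0.97) and -0.26 (95% interval -0.51 to -0.02).

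Spread between the libraries of a sample was wide for members and for all genes alike. At least 2-fold apart were 6 of 21 members (28.6%) in S31A injected, against 41.0% of genes, and 8 of 21 members (38.1%) in S31A control, against 40.4% of genes. In MO injected it was 9 of 22 members (40.9%), against 39.8% of genes, and in MO control 7 of 23 members (30.4%), against 24.8% of genes. Ube2a, Ube2d1, Ube2j2, Ube2o and Ube2l3 were apart in 3 of the 4 samples.

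Several members have near-identical copies in the genome that drew counts of their own. Of 35 members with a coding sequence, 17 had a copy outside the members at 85% identity and 80% coverage or more of that sequence. Assigned to their closest member, there were 50 such copies of 16 members, 28 of them with counts. The 50 include Gm20431, a protein coding gene with 0 counts that overlaps Ube2v1 itself and is no separate copy. All 28 with counts are annotated as processed pseudogenes, copies of a spliced RNA without introns. Gm5434 and Gm8325 among them are annotated as transcribed. The copies held 89452 counts, beside 407561 counts on the members. How reads with several matches and reads across exon junctions were placed is not given in the sources used here, and the aligner named, Bowtie2, places no read across an intron. How many of the reads on a copy came from its member, or the reverse, was not tested.

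The copies outweighed the member itself in several cases. Ube2f had 439 counts, and its copies had 10149 counts, of which 9938 lay on Gm5434 (chr12:36090379-36091829, 95.2% identity over the aligned coding sequence). In CPM, Gm5434 had 96.5 and 179 CPM in the S31A injected libraries and 100.1 and 109 CPM in the S31A control libraries, 105 and 113 CPM in the MO injected libraries and 109 and 231 CPM in the MO control libraries. It was thus present in every library, where Ube2f itself was at 0 in 2 libraries. Ube2e1 had 43 counts, and its 3 copies had 3077 counts, led by Gm12722 (chr4:105374454-105374946, 95.7% identity) with 1438 and Gm6906 with 1256 counts. Ube2v1 had 0 counts, and its copies had 530. These 2 pairs are shown over 45 bases of the coding strand, the member first and its copy below it, from the GENCODE M21 transcripts; capitals mark bases of the copy that differ from the member.
Ube2f: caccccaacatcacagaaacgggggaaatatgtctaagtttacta
Gm5434: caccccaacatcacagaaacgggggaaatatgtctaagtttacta
Ube2e1: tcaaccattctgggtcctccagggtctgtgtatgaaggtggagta
Gm12722: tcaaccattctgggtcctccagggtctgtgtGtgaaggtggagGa
The Ube2f window was the same in Gm5434, and the Ube2e1 window differed in Gm12722 at 2 bases.

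Among measured members, the Ube2d2a coding sequence was matched at 100% identity by Gm9762 (chr3:78966356-78966799), which had 23201 counts, beside 48005 counts on Ube2d2a. Gm9762 had 281 and 226 CPM in the S31A injected libraries and 282 and 250.4 CPM in the S31A control libraries, 322 and 445 CPM in the MO injected libraries and 259 and 206 CPM in the MO control libraries. The MO injected libraries lay above the MO control libraries by less than 2-fold, and the S31A libraries overlapped. Ube2d3 had copies Gm4596 (97.1% identity, 21315 counts) and Gm15361 (97.3%, 9665 counts), beside 183658 counts of its own. Ube2n had 5868 counts and Ube2n-ps1, identical to it over the coding sequence, 4106. Ube2q2 had 6417 counts and Gm4895 (99.0%) 3741, and Ube2j2 had 1439 and Gm5801 (99.2%) 1691. Ube2w had 1 copy with 8 counts. Ube2t, Ube2r2, Ube2e2, Ube2g1, Ube2a, Ube2k and Ube2o had none at these limits.

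Adding the counts of copies to their closest member, a choice made after seeing the data, brought Ube2f and Ube2e1 above 10 CPM and raised the measured members from 22 to 24. Summed with its copies, Ube2f stood at 105 to 238 CPM, with log2 ratios of 0.28 with S31A and -0.53 with MO. Ube2e1 stood at 24.4 to 50.9 CPM, with log2 ratios of 0.35 and -0.24. The members at least 2-fold apart stayed the same in number, 1 higher with S31A, and 1 higher and 3 lower with MO. The log2 ratio of Ube2q2 with S31A was 0.29 with its copy added, against -0.17 without, and that of Ube2n with MO was -0.19 against 0.03.

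**Figure D4:**
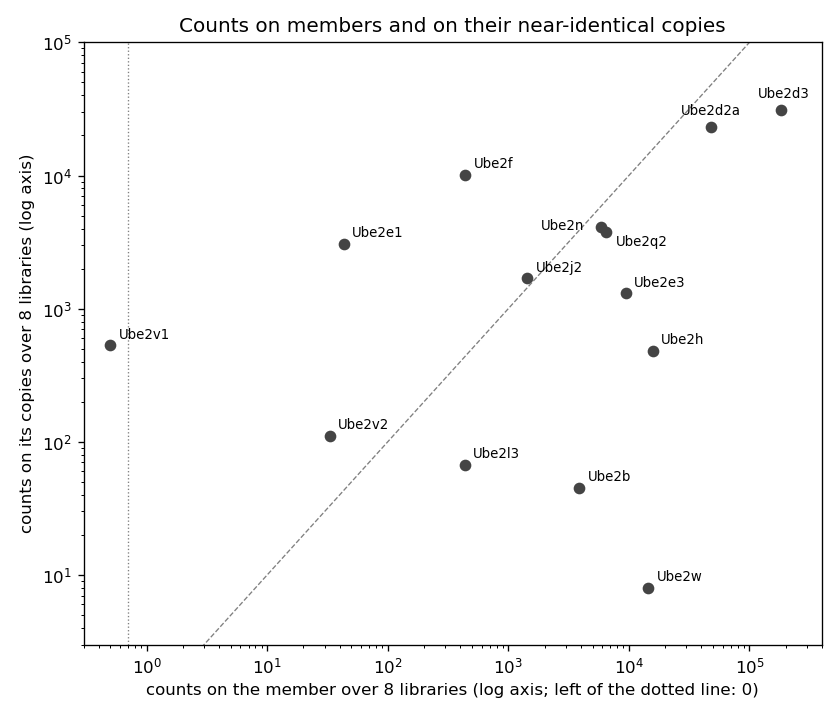
Counts on a member (horizontal, log axis) and on its near-identical copies (vertical, log axis), summed over the 8 libraries, 1 labelled point per member shown. The dashed line marks equal counts; Ube2f, Ube2e1, Ube2j2, Ube2v2 and Ube2v1 lie above it and Ube2d3, Ube2d2a and Ube2w below it.

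The rest of the relay was counted over the same measured genes. Of 10 E1 genes 6 were measured in each experiment, not all of them the same genes. None of the measured E1 genes differed by 2-fold, with medians of 0.39 with S31A and 0.30 with MO. Uba2, a subunit of the SUMO E1, had log2 ratios of 0.72 with S31A and 0.63 with MO, and Uba6, the E1 that charges Ube2z, had 0.46 and 0.70. Of 9 E2-fold genes with other names 7 were measured in each experiment. With S31A 1 was higher (Aktip, 1.01) and 1 lower (Uevld, -1.46), at a median of 0.15. The libraries of Uevld overlapped between the S31A groups. With MO 1 was lower (Atg10, an E2-like enzyme of autophagy, -1.46), at a median of 0.34, and Tsg101 had -0.82. Of 12 genes for ubiquitin and its relatives 6 were measured. With S31A 2 were higher, among them Ufm1 (1.02), at a median of 0.16. With MO 0 were past 2-fold, at a median of 0.17, with Ubb at -0.82 and Sumo3 at -0.78. For comparison, the full measured set had 14.1% past 2-fold upward and 16.1% downward with S31A. For MO these shares were 11.3% upward and 12.5% downward. Lists of 6 or 7 measured genes are too short to be told apart from such shares.

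Of 33 E3 ligases paired with single E2s 25 were measured in each experiment. With S31A 2 were higher, among them Hltf (1.94), and 2 lower, Rnf40 (-1.27) and Ubr2 (-1.05), at a median of 0.27. Among all measured genes 14.1% were higher and 16.1% lower with S31A. The libraries of Ubr2 overlapped between the S31A groups. With MO 3 were higher, among them Syvn1 (2.61), a ligase of the endoplasmic reticulum, and Pias2 (1.36). On the lower side were 3, Rad18 (-2.26), Ranbp2 (-1.37) and Hltf (-1.28), and the median was 0.03. With MO 11.3% of all measured genes were higher and 12.5% lower. The ratio of Syvn1 rested on MO injected library 1, at 86.9 CPM. MO injected library 2, at 7.09 CPM, lay below both MO control libraries (9.78 and 8.06 CPM). Ranbp2 likewise overlapped between the MO groups, whereas Pias2, Rad18 and Hltf did not. Past 2-fold without overlap were 7.29% of all measured genes on the higher and 10.4% on the lower side with MO. Rad18, the partner of Ube2a and Ube2b, was also lower in S31A control than in MO control zygotes (-1.25). Ube2c and Ube2s had log2 ratios of -0.52 and 1.004 with S31A, and -0.38 and 0.47 with MO.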

How the data were processed

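RNA from mouse zygotes was measured in 4 samples. The authors deposited a table of unnormalized whole-number read counts for each gene together with gene lengths in bases, per the file headers. Libraries came from PCR-amplified cDNA of total RNA, per the labels' protocols. Reads were handled with FastQC, Bowtie2 and featureCounts on mm10, with DESeq2 also named, per the submitters' processing notes; versions, the strand setting, the treatment of reads with several matches and the annotation are not given in the sources used here. Each sample had 2 count columns, called libraries. Whether these come from separate embryos is not given in the sources used here, so they were not counted as replicates. Columns with no sample numbered 0.

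The libraries of a sample were added together and scaled by TMM factors (edgeR 4.0.16, R 4.3.3). Levels per length used counts of each library scaled the same way over the 8 libraries. The call was a ratio of at least 2-fold. No test between groups was made, since each has 1 sample. Over the libraries, edgeR's quasi-likelihood test and DESeq2 1.42.0 were applied on all measured genes, with p-values adjusted over all of them. These p-values measure the spread between the libraries of a sample only. Interval bounds cover counting error only, since reads from PCR duplicates carry no molecular identifier. Copies were found with BLAST+ 2.17.0 against GENCODE M21 transcripts. Only edgeR's test within an experiment and the log2 ratio of summed counts were tried on simulated counts, drawn independently for each library. DESeq2, the overlap of libraries, the interaction term and the search for copies were not tried in this way.

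The members and gene lists were chosen with earlier results of these data known. Values per library were given for the 6 highest members per length, every member at least 2-fold apart without overlap of libraries, the 3 largest absolute log2 ratios in each experiment, and up to 2 measured members of each role class; from other lists up to 2 genes per experiment were named. Ube2d1, Ube2b, Ube2n, Ube2e3, Ube2j1, Ube2f, Ube2e1, Ube2l3 and Ube2v1, the copies, and Pias2, Rad18, Ranbp2, Rnf40 and Ubr2 fall outside this and were named after their values were seen, as was Hltf with MO. Alternatives were another scaling, other filters and prior counts, leaving out each library, and the counts of copies added. Some genes are counted in the totals but not reported here by name, and the plots leave them out.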

Additional observations from a re-analysis of the deposited data

Results flagged for a closer look

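Ube2r2, a lysine 48 chain builder, differed between the experiments by a log2 ratio of -7.48 (S31A ratio minus MO ratio). It was picked out because its S31A injected libraries lay below its S31A control libraries and its MO injected libraries above its MO control libraries. Ube2r2 had 1 count in S31A injected and 130 counts in S31A control zygotes, and 447 counts in MO injected and 72 counts in MO control zygotes. In edgeR's interaction test over the 8 libraries it had an adjusted p of 0.722 (unadjusted p 0.0186). It was not measured at 10 CPM in the S31A experiment.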

How the results depend on the processing

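Counts of members at least 2-fold apart moved with the filter on low values. With S31A injection 4 of 28 members were higher and 3 lower at 1 CPM (22.3% and 23.7% of genes). At 50 CPM 0 of 14 were higher and 0 lower (8.02% and 7.38% of genes). With no filter 4 of 33 were higher and 6 lower (23.1% and 24% of genes), against 1 and 0 at 10 CPM. With MO injection 3 of 30 were higher and 5 lower at 1 CPM (16.7% and 24.3% of genes). At 50 CPM 0 of 14 were higher and 2 lower (8.67% and 7.03% of genes). With no filter 3 of 33 were higher and 6 lower (16.3% and 29.1% of genes), against 1 and 3 at 10 CPM. For S31A control over MO control 3 of 30 were higher and 8 lower at 1 CPM (17.2% and 29.1% of genes). At 50 CPM 1 of 14 was higher and 1 lower (8.25% and 10% of genes). With no filter 4 of 33 were higher and 9 lower (15.2% and 35.7% of genes), against 1 and 3 at 10 CPM. The filter sets how many members are tested, and the share of all genes past 2-fold moved with it. The median log2 ratio was 0.0365 with no filter for S31A, against 0.26. For MO it was 0.26 at 1 CPM, 0.31 with no filter, 0.0748 with scaling by total counts and 0.0408 with the counts of copies added, against 0.19; scaling by total counts shifted the median of all genes by -0.112. For S31A control over MO control it was -0.0713 with copies added, against -0.26. The cause was not tested.

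Leaving out each library gave 1 to 4 members higher and 0 to 1 lower for S31A (median -0.0368 to 0.55), 1 to 4 higher and 2 to 7 lower for MO (median 0.0628 to 0.14), and 1 to 2 higher and 3 to 7 lower for S31A control over MO control (median -0.29 to -0.14). The library-level test passed 0 members for S31A and 0 to 4 for MO, where the library left alone was assumed to vary like the other group. DESeq2 passed 1 member in each experiment, against 0 by edgeR. Of the log2 ratios of single members recomputed, 278 stayed within the limits set and 136 moved, and none reversed a called direction among measured genes. Ube2w had log2 ratios of -2.65 to -1.64 with MO and Ube2t -2.87 to -1.40, at least 2-fold lower under all 13 alternatives. No paired analysis was possible because each group has 1 sample. Members near 0 rest on few counts in some samples, such as Ube2e2 with 6 counts in MO injected and Ube2r2 with 1 count in S31A injected zygotes.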
